A study of Homo sapiens with 4 samples.

Results

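The genes described here are 34 genes of the unfolded protein response and the integrated stress response, listed by name for their known roles in the pathway, with earlier results of these data known. All 34 were measured, among 18132 genes in all. They comprise 14 chaperones and folding enzymes of the endoplasmic reticulum (ER), 3 genes of ER-associated degradation, 6 stress sensors and transcription factors, and 11 targets of the transcription factor ATF4.

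Per the labels, the study compared Hs578T cells carrying a knockdown of ELK3 with sh control cells, in 2 Affymetrix PrimeView arrays per group. Hs578T is an established breast cancer line of mesenchymal, triple-negative type, and ELK3 is an ETS-family transcription factor. The knockdown cells were made stable by transduction with a lentiviral shRNA against human ELK3, and all cells grew in DMEM with fetal bovine serum, antibiotics and insulin. No stressor is named for either group. The labels number the knockdown arrays 1 and 5, and the controls 1 and 2, without saying if these are shRNA constructs, clones or cultures, so p-values measure the spread between these arrays, which may be technical.

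Proteins entering the secretory pathway fold in the ER with the help of chaperones and disulfide isomerases. When unfolded protein builds up, the sensors ERN1 (IRE1), EIF2AK3 (PERK) and ATF6 signal to the nucleus, where cleaved ATF6 and spliced XBP1 switch on chaperone and degradation genes. PERK belongs to the kinases that phosphorylate eIF2, which slows translation in general and favours that of ATF4, and ATF4 switches on genes of amino acid supply and of stress adaptation. Phosphorylation, cleavage, splicing of XBP1 and the amount of ATF4 protein are not read by these arrays, which measure the RNA near the 3′ end of each transcript.

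All values are log2 signals normalized by the authors with RMA, and a change is the knockdown mean minus the control mean. ELK3 itself had signals of 8.09 and 7.92 in the knockdown arrays and 10.05 and 10.07 in the controls, and fell by 2.06 (SE 0.09, adjusted p = 2.57e-06, limma), a 4.16-fold lower level. The groups differed across the transcriptome. The correlation over all probe sets was 0.996 between the knockdown arrays and 0.998 between the controls, against 0.902 to 0.904 between groups.

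Markers of the labelled cell type moved with the groups. All 16 mesenchymal markers fell, beside 21.3% of all genes (29.5% rose). The summed signal of these markers was 14.09 and 14.22 (log2) in the knockdown arrays against 17.07 and 17.01 in the controls. COL1A2 was at 4.98 and 5.62 against 13.77 and 13.56, near the dim end of the array in the knockdown arrays, while VIM stayed bright at 13.05 and 13.20 against 14.30 and 14.27. All 5 fibroblast markers fell as well, from summed signals of 12.92 and 12.91 in the controls to 7.16 and 7.29. Of 10 epithelial markers 5 rose and 1 fell (sums 14.16 and 13.86 against 11.18 and 11.24), with KRT19 at 10.71 and 10.66 against 4.76 and 4.70. The fall was in KRT7, at 4.68 and 5.09 against 7.63 and 7.85. CDH1 (group means 4.30 against 4.41) and EPCAM (3.76 against 3.83) were at the dim end in both groups. Neither passed, nor did CLDN4 and ESRP1. Of 9 markers of neurons and of the embryonic kidney line 3 rose and 2 fell (sums 13.99 and 13.83 against 12.00 and 11.92). These shares, 33.3% and 22.2%, were near the 29.5% and 21.3% of all genes. UCHL1, the largest rise, was at 13.42 and 13.25 against 5.16 and 4.38. LIN28B was at 10.66 and 10.37 against 4.33 and 4.09, and NEFL at 11.56 and 11.48 against 8.78 and 8.54. TUBB3 fell, at 8.47 and 8.55 against 11.68 and 11.61, as did PAX8, and NEFM, INA, STMN2 and PAX2 did not pass. Each sum follows the brightest genes of its list. None of 5 blood cell markers passed the test. In the mesenchymal markers the arrays labelled ELK3 knockdown go against the labelled cell line, while the epithelial and neuronal or kidney lists were mixed. Whether their RNA came from Hs578T cells was not tested, so every change below is a difference between arrays labelled knockdown and arrays labelled control, which may not be of the same cells. The part of this shift in the results below was not tested. The knockdown and whatever else separates the array pairs cannot be told apart, nor in bulk RNA can fewer cells of a type and less RNA per cell.

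Some promoters of these genes carry letters through which the response is known to act, and others, such as those of DNAJC3, MANF, DDIT4 and PPP1R15A, held no motif searched. The matches are shown here because they are the elements its branches are known to use. Promoters were 300-base windows, from 250 bases before to 50 bases after each RefSeq start on GRCh38.p14. The table held 42 such windows for 31 of the 34 genes. Motifs were searched on both strands. The ER stress response element, ERSE, bound by NF-Y with ATF6 or XBP1, was searched as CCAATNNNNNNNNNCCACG. It was found in 27 of 35116 promoters (0.0769%) and in 9 of the 42 windows (21.4%), which belong to 7 genes. The CANX match is counted in each overlapping window. The genes and the motifs were both chosen for known roles in the response, so these shares are a description and not a test. Each ERSE below has 10 bases on either side, reads along the motif's strand and has the fixed letters of the motif in capitals.
HSPA5, chr9:125241381-125241419, minus strand: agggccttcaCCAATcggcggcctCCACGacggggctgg
HSP90B1, chr12:103930206-103930244, plus strand: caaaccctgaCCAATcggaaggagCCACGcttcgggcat
HSP90B1, chr12:103930311-103930349, minus strand: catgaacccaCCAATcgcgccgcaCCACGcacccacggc
PDIA6, chr2:10812843-10812881, minus strand: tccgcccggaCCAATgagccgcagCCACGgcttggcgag
CALR, chr19:12938374-12938412, minus strand: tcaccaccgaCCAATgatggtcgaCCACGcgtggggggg
CANX, chr5:179698768-179698806, plus strand: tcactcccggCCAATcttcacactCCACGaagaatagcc
CRELD2, chr22:49918544-49918582, minus strand: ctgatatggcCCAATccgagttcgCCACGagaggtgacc
XBP1, chr22:28800593-28800631, minus strand: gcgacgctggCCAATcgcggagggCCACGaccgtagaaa

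The compact form of this element, ERSE-II, was searched as ATTGG and CCACG with any 1 base between them. It was found in 19 of all promoters (0.0541%) and in 3 of the 42 windows (7.14%), with a pair of matches in HYOU1. The UPR element TGACGTGG was found in 256 promoters (0.729%) and, of these genes, only in HYOU1, where it overlaps an ERSE-II. The amino acid response element, CARE, through which ATF4 acts, was searched as TGATGNAA and found in 1270 promoters (3.62%) and in 3 of the 42 windows (7.14%), those of HERPUD1, CHAC1 and ASNS. The ETS motif CCGGAAGT, the kind of site an ELK3-type factor can bind, was in 1453 promoters (4.14%) and in 3 of the 42 windows (7.14%), 1 of DNAJB9 and a pair of overlapping windows of DDIT3. The ERSE-II and CARE matches are shown in the same way, fixed letters in capitals.
HYOU1, ERSE-II, chr11:119057370-119057400, plus strand: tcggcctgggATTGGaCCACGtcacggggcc
HYOU1, ERSE-II, chr11:119057264-119057294, plus strand: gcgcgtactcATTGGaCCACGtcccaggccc
HERPUD1, ERSE-II, chr16:56932015-56932045, plus strand: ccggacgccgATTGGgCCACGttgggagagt
SDF2L1, ERSE-II, chr22:21642104-21642134, minus strand: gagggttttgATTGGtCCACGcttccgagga
HERPUD1, CARE, chr16:56931956-56931983, minus strand: gggcacgggcTGATGcAAcccgccgcgt
CHAC1, CARE, chr15:40953252-40953279, minus strand: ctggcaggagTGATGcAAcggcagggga
ASNS, CARE, chr7:97872459-97872486, minus strand: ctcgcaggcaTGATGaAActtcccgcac

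A match is a description of the letters in the window, and no binding was measured. Of the 18 windows of chaperone and folding genes, with the CANX match counted in each overlapping window, 8 (44.4%) held an ERSE, in 6 of 13 genes. None of the 12 windows of ATF4 targets and none of the 3 of ER-associated degradation genes did. The windows of PDIA3, PSPH and SHMT2 were not analysed here.

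**Figure D1:**
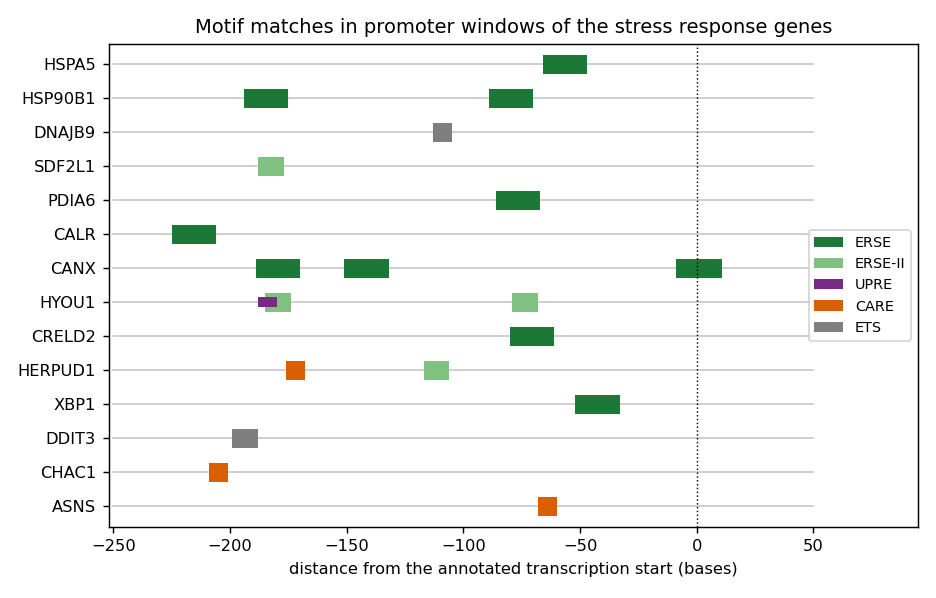
Motif matches in the promoter windows of the stress response genes, by distance in bases from the annotated transcription start (dotted line at 0); each line is a gene's window and each coloured bar a match of the motif named in the legend. ERSE and ERSE-II matches sit in chaperone and folding genes, in HERPUD1 and in XBP1, and the CARE of CHAC1 and ASNS in genes that have neither.

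Most of the 34 genes were lower in the ELK3 knockdown arrays, by modest amounts. With limma, 22 fell and 4 rose at an adjusted p under 0.05, and 8 did not pass. Among all genes tested 50.8% passed, 21.3% as lower and 29.5% as higher, against 64.7% and 11.8% of these 34. With dim genes left out the shares among all genes were 24.5% lower and 35.4% higher. Their median change was -0.41, beside -0.01 over all genes, and the range ran from -2.52 (DDIT4) to 0.57 (ATF4).

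The knockdown and control arrays did not overlap for 31 of the 34 genes. The same held for 75.3% of all genes. CANX, HERPUD1 and XBP1 were the 3 with overlapping groups. Only 4 genes fell by more than 2-fold, DDIT4, CHAC1, PPP1R15A and CALR, and none rose that far. Among all genes 7.51% fell and 10.2% rose by that much.

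**Figure D2:**
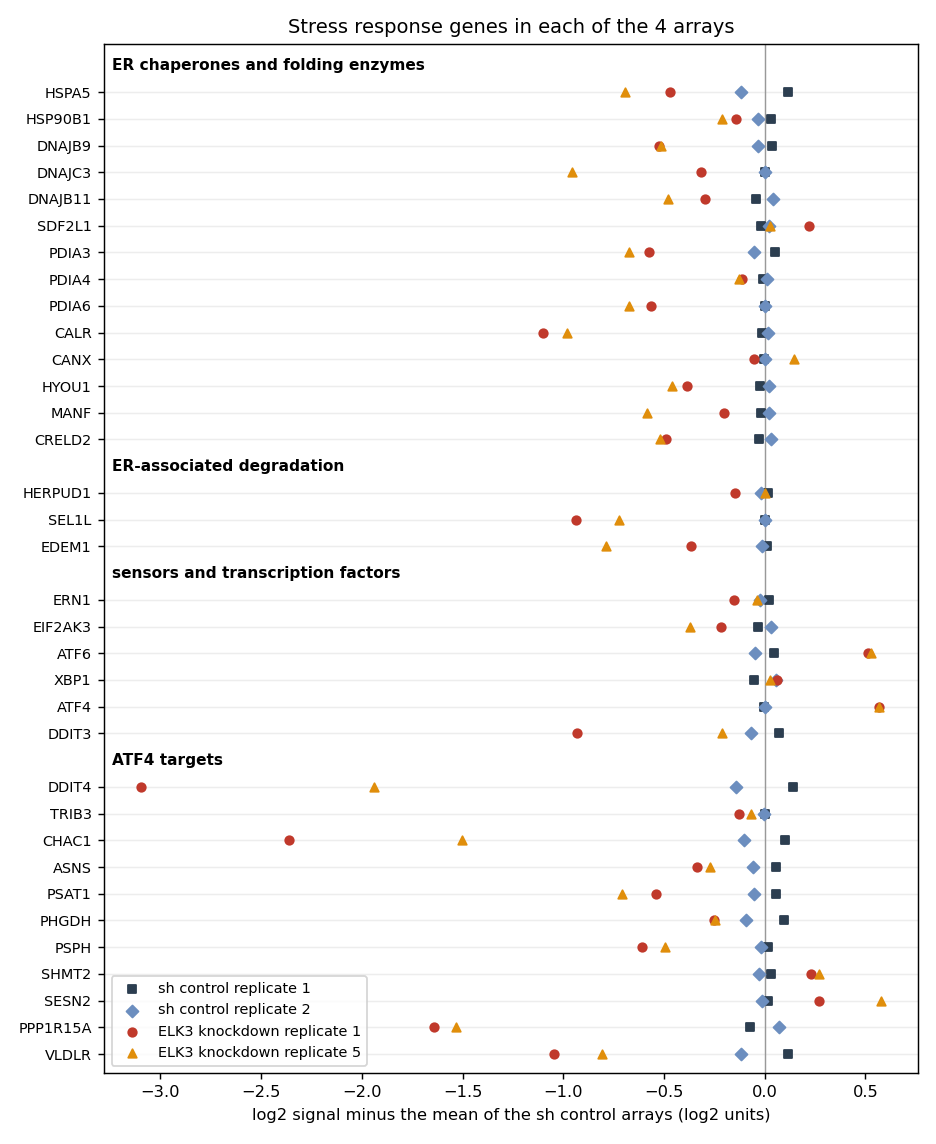
Log2 signal of each stress response gene in each of the 4 arrays, as the difference from the mean of the sh control arrays (vertical line at 0), with genes grouped by role and a symbol per array. The knockdown symbols lie left of the controls for most chaperones and ATF4 targets, farthest for DDIT4 and CHAC1, and right of them for ATF6, ATF4, SHMT2 and SESN2.

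Most ER chaperones and folding enzymes fell. Of 14 genes 11 fell (78.6%), 0 rose and 3 did not pass, with a median change of -0.46. Among all genes 21.3% fell and 29.5% rose. The fall took in the central Hsp70 and its co-chaperones, 2 of the 3 disulfide isomerases, and calreticulin, but not calnexin. At an unadjusted p under 0.05 and a fold over 1.5, the selection named in the study's design text, 4 of the 14 were lower, beside 12.6% of all genes.

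HSPA5 (BiP), the Hsp70 of the ER lumen and a regulator of all 3 sensors, had signals of 12.98 and 12.76 in the knockdown arrays and 13.57 and 13.33 in the controls. Both knockdown arrays lay below both controls, and HSPA5 fell by 0.58 (SE 0.10, adjusted p = 0.00183), 1.50-fold. The control arrays were 0.23 apart. All 6 of its probe sets were lower, with changes from -1.13 to -0.36, and the change was -0.94 without cross-hybridising probe sets. HSP90B1 (GRP94), the ER member of the Hsp90 family, was near the top of the array's range in all samples, at 13.69 and 13.63 against 13.87 and 13.81. It fell by 0.18 (SE 0.04, adjusted p = 0.0121), and without control replicate 1 the change of -0.15 no longer passed, nor did the -0.14 without cross-hybridising probe sets. Its other probe sets were lower too, down to -0.63.

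The J-domain partners of BiP also fell. DNAJB9 (ERdj4), which helps BiP hold IRE1 inactive, had 9.48 and 9.49 in the knockdown arrays against 10.04 and 9.97. Its fall of 0.52 (SE 0.07, adjusted p = 7.89e-04) was far larger than the gap within either pair. DNAJB11 (ERdj3), a soluble co-chaperone, had 11.45 and 11.26 against 11.70 and 11.79 and fell by 0.39 (SE 0.08, adjusted p = 0.00413). DNAJC3 (p58IPK), a co-chaperone also known as an inhibitor of the eIF2 kinases, had 9.28 and 8.64 against 9.60 and 9.60. It fell by 0.64 (SE 0.19, adjusted p = 0.027), with most of its error from the knockdown arrays, replicate 5 lying far below replicate 1. The change was -0.32 without knockdown replicate 5 and -0.96 without replicate 1. SDF2L1, a partner of ERdj3 in BiP complexes whose promoter holds an ERSE-II, did not pass, at 11.50 and 11.30 against 11.26 and 11.30 (change 0.12, 95% interval -0.06 to 0.31, adjusted p = 0.234), but did without knockdown replicate 5 (0.22).

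Among the disulfide isomerases, PDIA3 (ERp57), which works with calnexin and calreticulin on glycoproteins, had 11.21 and 11.11 against 11.84 and 11.74 and fell by 0.63 (SE 0.07, adjusted p = 0.000174). PDIA6 (P5), which also acts on the sensor IRE1, had 12.04 and 11.93 against 12.60 and 12.60 and fell by 0.62 (SE 0.05, adjusted p = 7.14e-05). Both fell 1.54-fold, with the pairs well apart. PDIA4 (ERp72), by contrast, had 12.49 and 12.47 against 12.59 and 12.61. Its change of -0.12 (95% interval -0.23 to -0.01) did not pass, at an adjusted p of 0.0622, although the arrays did not overlap.

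Calreticulin and calnexin are the soluble and the membrane-bound lectin chaperones of the same glycoprotein folding cycle, and both promoters hold an ERSE. CALR had 8.42 and 8.54 in the knockdown arrays against 9.51 and 9.54 in the controls. It fell by 1.04 (SE 0.09, adjusted p = 5.11e-05), 2.06-fold, the largest fall among the 14. CANX had 13.05 and 13.25 against 13.10 and 13.11, with the knockdown arrays on either side of the controls. Its change of 0.05 (95% interval -0.11 to 0.20, adjusted p = 0.619) did not pass, and its 9 probe sets gave changes from -0.24 to 0.63. The direction of CANX therefore depends on the probe set, and it is given as no direction here.

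HYOU1 (GRP170), a large Hsp70-related chaperone and exchange factor of BiP with a pair of ERSE-II matches, had 11.04 and 10.96 against 11.40 and 11.44. It fell by 0.42 (SE 0.06, adjusted p = 0.000835), and all 9 probe sets were lower, from -0.77 to -0.28. CRELD2, an ER protein induced by stress, had 11.13 and 11.10 against 11.59 and 11.65 and fell by 0.51 (SE 0.06, adjusted p = 0.000253). Its other probe set, dim at a mean of 4.27 over the arrays, gave 0.12. With the mean of both the change was -0.19 and did not pass. MANF, a BiP-binding protein that is secreted under stress, had 11.94 and 11.56 against 12.12 and 12.16. It fell by 0.39 (SE 0.11, adjusted p = 0.0252), and without control replicate 2 the change of -0.37 did not pass. Without knockdown replicate 5 it was -0.20, and without replicate 1 it was -0.58.

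**Figure D3:**
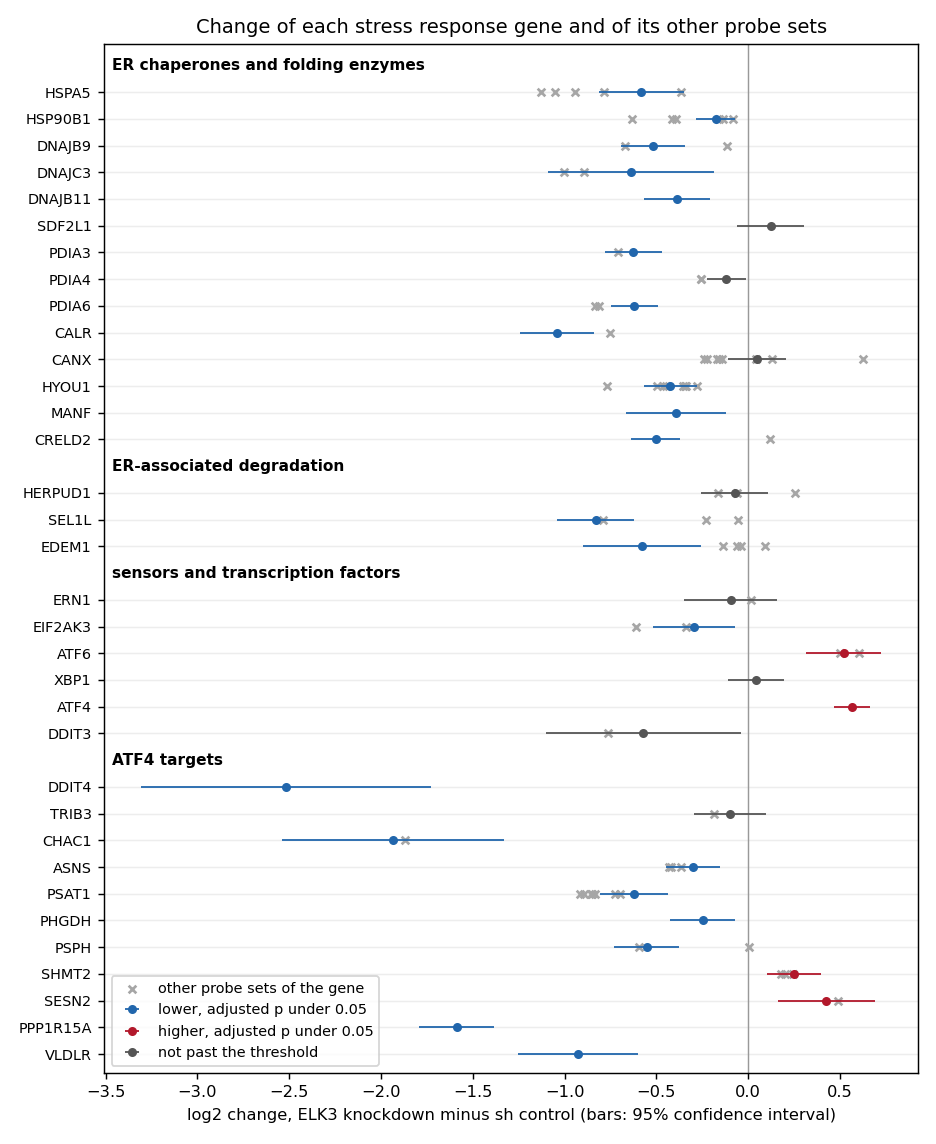
Log2 change of each stress response gene, ELK3 knockdown minus sh control, as a filled point with its 95% confidence interval (blue lower, red higher, grey not past an adjusted p of 0.05), with the gene's other probe sets as crosses. The intervals of DDIT4, CHAC1, DDIT3 and DNAJC3 are the widest, and the crosses of CANX lie on both sides of 0.

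In ER-associated degradation, the pathway that returns misfolded proteins to the cytosol for the proteasome, 2 of the 3 genes fell (21.3% of all genes fell). SEL1L, the adaptor of the HRD1 ubiquitin ligase, had 9.61 and 9.83 against 10.55 and 10.55 and fell by 0.83 (SE 0.09, adjusted p = 0.000186), 1.78-fold (-0.48 averaged over its probe sets). EDEM1, which marks glycoproteins for disposal, had 9.63 and 9.20 against 10.00 and 9.98 and fell by 0.58 (SE 0.14, adjusted p = 0.00967). Its 5 probe sets did not all point one way, and with their mean the change was -0.15 and did not pass. Without knockdown replicate 5 it was -0.36. HERPUD1 (Herp), a scaffold of the same ligase and a gene whose promoter holds both an ERSE-II and a CARE, had 10.13 and 10.28 against 10.29 and 10.26. Its groups overlapped, and its change of -0.07 did not pass (adjusted p = 0.468).

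The 6 sensors and transcription factors moved in both directions. Of these 2 rose (33.3%), 1 fell (16.7%) and 3 did not pass, shares near the 29.5% and 21.3% of all genes, with a median change of -0.03. ATF6 and ATF4 rose, EIF2AK3 fell, and the RNAs of ERN1, XBP1 and DDIT3 did not pass.

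ATF6, the sensor that is cleaved into a transcription factor, had 8.98 and 8.99 in the knockdown arrays against 8.51 and 8.42. It rose by 0.52 (SE 0.09, adjusted p = 0.00184), 1.43-fold, and its 3 probe sets gave 0.50 to 0.60. EIF2AK3 (PERK) had 8.75 and 8.60 against 8.94 and 9.001 and fell by 0.30 (SE 0.09, adjusted p = 0.0332). The fall did not pass without either control array (-0.33 without replicate 1 and -0.26 without replicate 2). ERN1 (IRE1), the nuclease that splices XBP1 RNA, was close to the dim end of the array, at 5.58 and 5.70 against 5.76 and 5.71, and its change of -0.10 did not pass.

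ATF4, the central factor of the integrated stress response, had 13.23 and 13.23 against 12.66 and 12.67. It rose by 0.57 (SE 0.04, adjusted p = 2.96e-05), 1.48-fold, the largest rise of the 34 genes and one read by a single probe set whose name marks possible cross-hybridisation. XBP1, whose promoter holds an ERSE, had 11.20 and 11.16 against 11.08 and 11.19. The groups overlapped (change 0.04, 95% interval -0.11 to 0.19, adjusted p = 0.634), and without control replicate 1 the sign turned. DDIT3 (CHOP), a pro-apoptotic factor downstream of ATF4, had 6.69 and 7.42 against 7.70 and 7.56. Both knockdown arrays were lower, but by unequal amounts, so that the change of -0.57 (95% interval -1.10 to -0.04) missed the threshold at an adjusted p of 0.0713, while without knockdown replicate 5 it was -0.93 and passed, and without replicate 1 it was -0.21 and did not.

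Among the 11 ATF4 targets, 8 fell (72.7%), 2 rose (18.2%) and 1 did not pass, with a median of -0.55, while the RNA of ATF4 rose. Among all genes 21.3% fell and 29.5% rose. In all 11 the arrays of the groups did not overlap, as in 75.3% of all genes. The largest falls of the 34 genes were here: DDIT4 and CHAC1, whose changes are exceeded by those of 4.29% and 6.70% of all genes, and PPP1R15A, by 9.43%.

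DDIT4 (REDD1), a stress-induced inhibitor of mTORC1, had 7.15 and 8.30 in the knockdown arrays against 10.39 and 10.10 in the controls. It fell by 2.52 (SE 0.33, adjusted p = 0.000556), 5.73-fold. CHAC1, which degrades glutathione and has a CARE in its promoter, had 7.05 and 7.91 against 9.51 and 9.31 and fell by 1.93 (SE 0.25, adjusted p = 0.000552), 3.82-fold. Its probe sets gave -1.93 and -1.87. For both genes the knockdown arrays differed from each other by far more than the controls did, and both stayed well below the controls.

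PPP1R15A (GADD34), the subunit that directs a phosphatase to eIF2 and so ends the response, had 8.85 and 8.96 against 10.42 and 10.56. It fell by 1.59 (SE 0.09, adjusted p = 6.88e-06), 3.01-fold, with the arrays of each pair close together, in a single probe set whose name marks possible cross-hybridisation. VLDLR, a lipoprotein receptor that PERK signalling raises, had 6.21 and 6.45 against 7.37 and 7.14 and fell by 0.93 (SE 0.14, adjusted p = 0.00105). TRIB3, a pseudokinase that feeds back on ATF4, had 8.77 and 8.83 against 8.90 and 8.90, and its change of -0.10 did not pass (adjusted p = 0.369). SESN2 (sestrin 2), an inhibitor of mTORC1 through amino acid sensing, moved the other way, from 9.42 and 9.39 to 9.67 and 9.98. It rose by 0.43 (SE 0.11, adjusted p = 0.015), a rise that did not pass without control replicate 2 (0.41) and was 0.27 without knockdown replicate 5.

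The amino acid genes of the set make serine, glycine and asparagine. The serine pathway runs through PHGDH, PSAT1 and PSPH, and all 3 fell. PHGDH had 11.30 and 11.30 against 11.64 and 11.45 (fell by 0.25, SE 0.07, adjusted p = 0.0275), and without control replicate 1 its change of -0.15 did not pass. PSAT1 had 10.85 and 10.68 against 11.45 and 11.34 and fell by 0.62 (SE 0.08, adjusted p = 0.000421), with all 8 probe sets lower. PSPH had 9.70 and 9.82 against 10.33 and 10.30 and fell by 0.55 (SE 0.07, adjusted p = 0.000642).

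SHMT2, the mitochondrial enzyme that turns serine into glycine, rose instead. It had 10.94 and 10.98 against 10.74 and 10.68 (0.25, SE 0.06, adjusted p = 0.0131), and the rise did not pass without either control array. ASNS, which makes asparagine and has a CARE close to its start, had 11.52 and 11.59 against 11.91 and 11.80. It fell by 0.30 (SE 0.06, adjusted p = 0.00515), and the change of -0.25 without control replicate 1 did not pass.

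Several of these genes differed between the knockdown arrays themselves. The arrays labelled 1 and 5 were 1.15 apart for DDIT4, a gap exceeded by 0.226% of all genes, 0.86 apart for CHAC1 (0.469%) and 0.72 for DDIT3 (0.849%), each with replicate 5 higher. NUPR1, a stress-induced chromatin protein outside the 34 genes, had 6.57 and 8.22 against 10.20 and 10.34, and its gap was exceeded by 0.0882% of genes. DNAJC3 had the opposite order, with replicate 5 lower by 0.64 (1.17%), as had EDEM1 (0.43) and MANF (0.38).

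Gaps over 0.5 between the knockdown arrays were seen in 4 of the 34 genes (11.8%) and in 2.76% of all genes. No such gap was seen between the control arrays for the 34 genes, against 0.91% of all genes. Replicate 5 was the higher for 19 of the 34, so the arrays did not differ in one direction. Leaving out replicate 5 moved DDIT4 to -3.10 and CHAC1 to -2.36, and leaving out replicate 1 moved them to -1.94 and -1.50, all past the threshold.

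**Figure D4:**
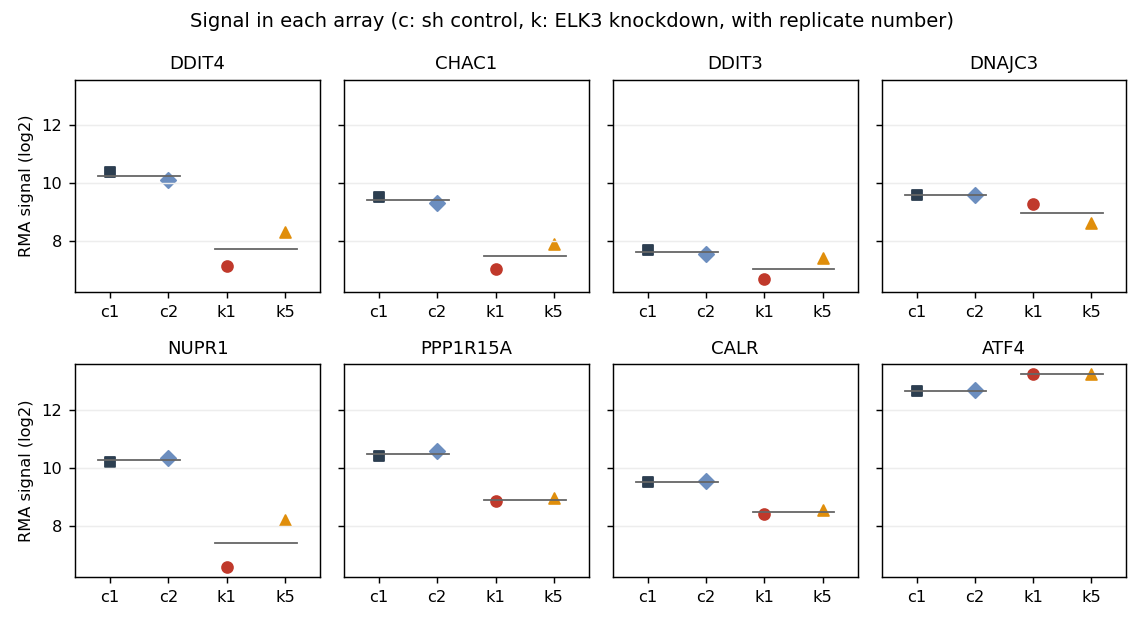
RMA signal (log2) in each array (c1 and c2 sh control, k1 and k5 ELK3 knockdown, with group means as grey lines) for 8 genes of the stress response. DDIT4, CHAC1, DDIT3 and NUPR1 are higher in k5 than in k1, DNAJC3 is lower, and PPP1R15A, CALR and ATF4 have nearly equal knockdown arrays.

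The probe sets of a gene mostly pointed one way. The 34 genes had 106 probe sets, and 25 genes had several. Of the 26 genes that passed, 16 had several probe sets all in the same direction, 3 had some in the opposite direction (CRELD2, EDEM1 and PSPH) and 7 had 1 probe set. The opposite probe sets of CRELD2 and PSPH were dim (means 4.27 and 3.49, under the dim threshold of 5.01). That of EDEM1 had a mean of 5.61 and a change of 0.09. Without each array in turn 19 of the 26 stayed past the threshold in the same direction, and PDIA3, PDIA6, CALR and PPP1R15A kept their call under every alternative that could be run for them. Levels of different genes are not compared here, since each probe set has its own brightness.

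Other genes of the pathway were counted in 9 lists, with 135 of 143 genes measured. In these, 64 fell (47.4%), 26 rose (19.3%) and 45 did not pass, with a median of -0.17. Among all genes 21.3% fell and 29.5% rose. The lists of ER folding, degradation and traffic were lower on balance, like the 14 chaperones. So were the further transcription factors (57.1% fell) and the further ATF4 and CHOP targets (55.6%). In the eIF2 list 7.69% fell.

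Further ER folding and glycoprotein quality control genes had 13 falls (76.5%) and 1 rise (5.88%) among 17, with a median of -0.68. Among all genes these shares were 21.3% and 29.5%. FKBP14, a collagen prolyl isomerase, fell by 2.09 (4.26-fold, adjusted p = 1.63e-06), from 10.26 and 10.35 to 8.18 and 8.25. PDIA5, a disulfide isomerase, and DNAJC1, a J-domain protein, fell by 0.94 and 0.91. The rise was in ERO1B, an oxidase of disulfide isomerases, from 4.23 and 4.27, at the dim end, to 7.34 and 6.82 (2.83, adjusted p = 1.26e-05). Averaging its 4 probe sets gave 1.46.

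The degradation machinery had 9 falls (52.9%) and 2 rises (11.8%) among 17 (median -0.25), beside 21.3% and 29.5% of all genes. DERL1, a channel component, fell by 1.44, ERLEC1 and DERL2 fell less (-0.86 and -0.74), while DERL3 rose by 0.89 and the conjugating enzyme UBE2J1 by 0.38. Translocation and ER-Golgi traffic had 11 falls (57.9%) and 3 rises (15.8%) among 19 (median -0.46). KDELR3, a receptor that returns ER proteins, fell from 11.80 and 11.75 to 8.92 and 8.98 (7.08-fold, adjusted p = 2.43e-07). SEC24D, a COPII coat protein needed for collagen export, fell by 2.80 (-1.93 averaged over its probe sets), and SSR1, a translocon subunit, by 1.17 (-0.40). SEC11C of the signal peptidase rose by 1.81 (1.06 averaged over its probe sets), SEC63 by 0.63 and SPCS2 by 0.29, which did not pass without cross-hybridising probe sets (0.071).

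The eIF2 kinases, eIF2B and phosphatase list had 5 rises (38.5%) and 1 fall (7.69%) among 13, with a median of 0.15. Among all genes 29.5% rose and 21.3% fell. EIF2S3, EIF2B3 and EIF2B1, subunits of eIF2 and its exchange factor, rose by 0.78, 0.73 and 0.44, and EIF2B4 fell by 0.72. Among 14 further transcription factors and their activators 8 fell (57.1%) and 2 rose (14.3%), with a median of -0.58. CREB3L1 (OASIS), an ATF6-like factor of collagen-secreting cells, fell from 9.78 and 9.89 to 6.04 and 5.90 (14.5-fold, adjusted p = 3.83e-07; log2 change -2.69 averaged over its probe sets). NUPR1 fell by 2.88 (adjusted p = 0.00141), from -3.70 to -2.05 as 1 or the other knockdown array was left out, and CREB3L2 by 1.67. MBTPS2, the protease that makes the last cut in ATF6, rose by 1.53 and ATF5 by 0.42, while ATF3 did not pass (change 0.10).

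Of 18 further targets of ATF4 and CHOP, 10 fell (55.6%) and 4 rose (22.2%), beside 21.3% and 29.5% of all genes (median -0.33). STC2 (stanniocalcin 2), a secreted glycoprotein, fell from 13.02 and 13.00 to 7.61 and 7.99, 36.9-fold (adjusted p = 2.32e-07). SLC7A11, the cystine transporter, fell by 2.31 and VEGFA, an angiogenic factor, by 1.24. BBC3 (PUMA), a pro-apoptotic BH3 protein, rose by 3.11 (adjusted p = 1.96e-05; 2.10 averaged over its probe sets), ALDH18A1 of proline synthesis by 0.69 and the transporter SLC7A5 by 0.23, whose sign turned when its probe sets were averaged. Aminoacyl-tRNA synthetases, many of them ATF4 targets, had 7 falls (41.2%) and 2 rises (11.8%) among 17 (median -0.02). WARS1, GARS1 and CARS1 fell by 1.30, 1.24 and 0.88, and NARS1 and IARS1 rose by 0.67 and 0.34.

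The stress responses of other compartments had shares near those of all genes, of which 29.5% rose and 21.3% fell. The cytosolic heat shock list had 4 rises (36.4%) and 3 falls (27.3%) among 11 (median -0.10), with HSPA1B higher by 2.43. HSPA1B has a near-identical copy, so its value is uncertain as to the gene. HSPA4 and HSPB1 rose by 0.43 and 0.35, and BAG3, DNAJA1 and HSPA8 fell by 0.26, 0.22 and 0.19, of which HSPA8 did not pass when its probe sets were averaged (-0.059). The mitochondrial list had 3 rises (33.3%) and 2 falls (22.2%) among 9 (median 0.07). TRAP1, the mitochondrial Hsp90, rose by 1.42, DNAJA3 by 0.70 and CLPX by 0.56, and the proteases LONP1 and CLPP fell by 0.61 and 0.35.

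**Figure D5:**
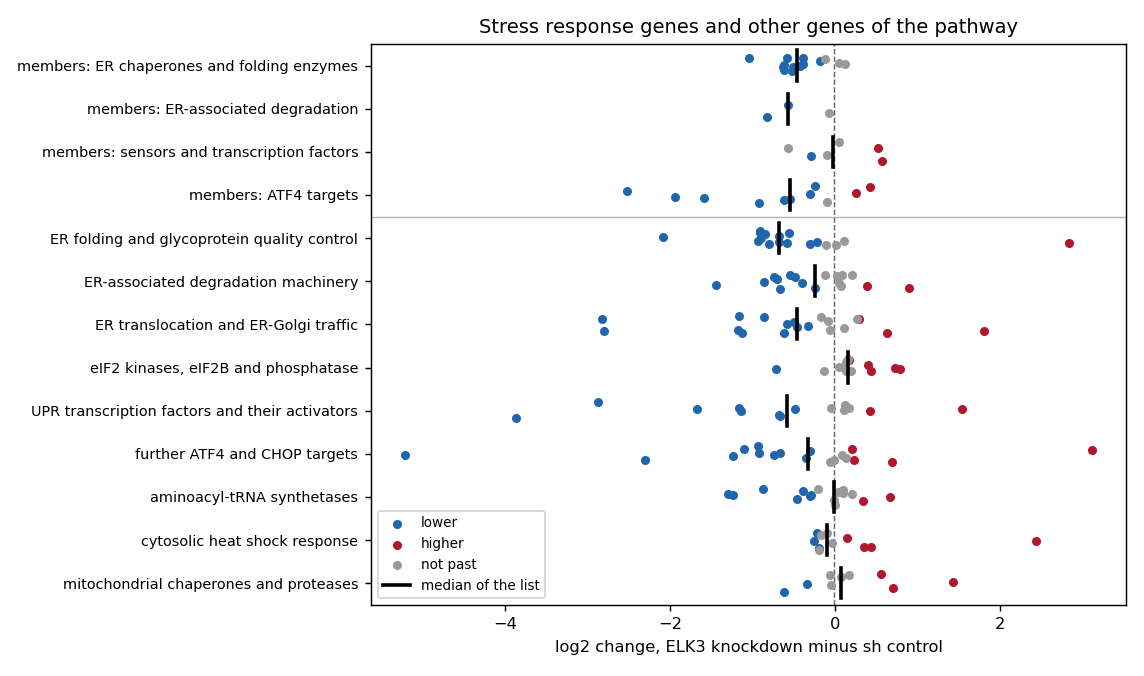
Log2 change, ELK3 knockdown minus sh control, of each measured gene in the 4 roles of the 34 genes (above the line) and in 9 lists of other genes of the pathway (below it), with blue points lower, red higher and grey not past an adjusted p of 0.05, black bars for list medians and a dashed line for the median of all genes (-0.01). Medians of the ER lists lie left of the dashed line, from -0.68 to -0.25. Those of the further transcription factors and the further ATF4 and CHOP targets lie left too, at -0.58 and -0.33. The eIF2 and mitochondrial lists have medians right of it, at 0.15 and 0.07.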

How the data were processed

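The authors deposited log2 signals of 49293 probe sets on 4 arrays. Per the submitters' processing notes these were made with RMA; the version is not given in the sources used here. Array medians were 6.76 to 6.80. RMA gives no call of signal above background, and precision is limited by the number of arrays. Gene names came from the platform annotation (44988 with 1 symbol, 1832 with several, 2473 unlisted), and each gene took its brightest probe set by the mean of all arrays. The test was limma 3.58.1 in R 4.3.3 (lmFit, eBayes with intensity trend, two-sided, Benjamini-Hochberg over 18132 genes, threshold 0.05), with 2 residual and 4.83 prior degrees of freedom, a script tested on simulated data. With 2 arrays against 2 an exact permutation test of 1 gene cannot give a p below 0.333. The 34 genes and the other lists were chosen with earlier results of these data known. Genes named outside the 34 are the 3 largest rises and 3 largest falls past the threshold in each list, ELK3, and cell type markers; ATF3 is a listed gene named after its value was seen. Listed genes without a usable probe set, such as TXNDC5 and KDELR2, were not analysed here. Promoters were searched with Python 3.11.15 in a RefSeq table on GRCh38.p14, credited to RefSeq. Alternatives covered the moderation, the probe set rule, dim genes (under 5.01), the scaling, the threshold and each array left out.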

Additional observations from a re-analysis of the deposited data

How the results depend on the processing

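Robust moderation, leaving out dim genes, quantile normalization and median centring lost no call among the 34 genes; PDIA4 passed as lower under both scalings. Without the intensity trend HSP90B1, MANF and PHGDH no longer passed (limma adjusted p 0.124, 0.0582 and 0.0773), nor did 4 of the 46 other named genes (SLC7A5, BAG3, DNAJA1 and HSPA8). Without moderation 2926 genes rose and 2165 fell over all genes, and 2 and 9 of the 34; by role 7 chaperones fell, 0 degradation genes, 0 sensors and 2 ATF4 targets, and 0 ATF4 targets rose, and of the other pathway genes 16 rose and 40 fell. With a fold over 1.5 and an unadjusted p under 0.05, 3469 genes rose (19.1%) and 2284 fell (12.6%), and 0 and 10 of the 34, namely 4 chaperones, 1 degradation gene, 0 sensors and 5 ATF4 targets lower, with 0 sensors and 0 ATF4 targets higher; of the other pathway genes 13 rose and 42 fell. At an adjusted p under 0.01, 2 of the 34 rose, 0 sensors fell and 0 ATF4 targets rose. With the mean of all probe sets 1 degradation gene and 2 sensors fell. With cross-hybridising probe sets left out 1 sensor rose, ATF4 having no other probe set. DNAJB9, DDIT3, PSPH and PPP1R15A had no other probe set either, so this check could not be run for them. The main probe set of 13 of the 34 genes carries such a mark in its name. Leaving out 1 array gave 2 to 5 rises and 18 to 23 falls among the 34. By role the ranges were 0 to 1 rises and 10 to 12 falls for chaperones, 2 falls for degradation genes, 0 to 2 falls and 2 rises for sensors, and 0 to 2 rises and 6 to 8 falls for ATF4 targets. For other pathway genes they were 20 to 34 rises and 56 to 70 falls, and for all genes 4495 to 5614 and 3088 to 4061. Calls not past the threshold in full but past it without 1 array were SDF2L1 (0.22) and DDIT3 (-0.93) without knockdown replicate 5, and PDIA4 (-0.13) and CANX (0.14) without knockdown replicate 1. The sign of CANX turned with the mean of its probe sets (-0.011), without cross-hybridising probe sets (-0.14) and without knockdown replicate 5 (-0.052), that of XBP1 without control replicate 1 (-0.014, in a range up to 0.098) and that of SLC7A5 with the mean of its probe sets (-0.0081). All changes rest on 2 arrays a group, and where an array was left out the lone array was assumed to vary like the others. The causes were not tested. No paired analysis was possible because the groups share only 1 replicate number.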

Other observations

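The ERSE was found in the promoters of 18 of the genes tested, and 11 of these are not among the 34 genes described above. They are named for the motif, outside the naming rule of the other lists, and after their values were seen. Of the 11, 6 fell (54.5%) and 3 rose (27.3%), with a median change of -0.33, beside 21.3% and 29.5% of all genes. SERP1, which protects newly made membrane proteins in the ER, fell by 0.74 (limma adjusted p = 3.58e-05), and FICD, an enzyme that switches BiP off by AMPylation, fell by 0.63. EIF2A, NLRP4, SYNPO and TMEM120A fell by 0.40, 0.33, 2.79 and 0.51. ALG12, a mannosyltransferase of N-glycan assembly, rose by 0.54, ERO1B by 2.83 (1.46 averaged over its probe sets, and from control signals under the dim threshold of 5.01) and ZNF17 by 1.00, and GLRA2 and TRIM5 did not pass. Of the 16 genes with an ERSE-II, 3 fell (18.8%) and 6 rose (37.5%), with a median of 0.15. Of the 522 genes with a CARE, 129 fell (24.7%) and 119 rose (22.8%), and of the 160 with a UPR element 49 fell (30.6%) and 47 rose (29.4%). Of the 1039 genes with the ETS motif, 219 fell (21.1%) and 439 rose (42.3%), with a median of 0.15. The genes with the ETS motif were brighter, with a median control signal of 9.04 against 7.28 over all genes. With dim genes left out 35.4% of all genes rose and 24.5% fell. Whether the motif bears on the share was not tested. These genes were grouped by letters in the promoter, and no binding was measured.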
